A study of Rattus norvegicus with 24 samples.

Results

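BRD0476, a small molecule known here only by its code name, was compared with its vehicle DMSO in rat beta-cell line cultures that had received inflammatory cytokines for 6 h. The comparison uses 6 of the 24 arrays of the series, chosen by their labels: 3 arrays of the group 6hr_BRD0476_Cyto and 3 of the group 6hr_DMSO_Cyto. The cells were INS-1E, an insulinoma line of the rat that makes insulin and is used as a stand-in for pancreatic beta cells. As 1 line grown in culture, it lacks the immune and other islet cells of living tissue. Both groups were given IL-1b at 10 ng/ml, IFN-g at 50 ng/ml and TNF-a at 25 ng/ml; one also had 10 uM BRD0476 and the other had DMSO. Reference groups were DMSO without cytokines at 6 h, called untreated here, BRD0476 without cytokines at 6 h, and the same cytokine pair at 12 h, each with 3 arrays. The question was which parts of the cytokine response differed when the compound was present. The labels number the replicates without saying whether they were separate cultures, so the spread between arrays may be technical. The p-values measure the spread within all 8 groups of the series, including the 12 h groups without cytokines.

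Interferon-gamma binds a receptor that carries the kinases JAK1 and JAK2. Signalling from there reaches DNA elements called GAS, switches on Irf1 and, through elements called ISRE, a later wave of genes. IL-1 beta and TNF-alpha signal chiefly by way of NF-κB and the MAP kinases, whose early targets include their own inhibitors, chemokines and survival genes. In beta cells the mix of these cytokines is known to raise antigen presentation, chemokines and nitric oxide synthesis, to lower genes of insulin secretion and to end in cell death.

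Levels are log2 of the array intensity, a difference is the mean of the 3 BRD0476 arrays minus the mean of the 3 DMSO arrays, and 1 unit is 2-fold. Differences are given ± their standard error with adjusted p-values from limma over 14217 genes, and a gene was called, and is said to have risen or fallen, at an adjusted p under 0.05. Each standard error pools the spread within the 8 groups, so it is not the scatter of the arrays compared. For Cxcl9, Cxcl10, Cxcl11, Rsad2, Gbp2 and Ifgga2l1 it takes in a first array of BRD0476 without cytokines that stood above the other 2. An exact test of 3 against 3 arrays cannot give a two-sided p under 0.1. The table has no detection calls, and the lower quartile of all log2 values was 3.84, so a fall that ends near this level may be understated.

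Across genes, arrays within each of the 2 groups correlated at r between 0.9925 and 0.9973, and arrays of different groups at 0.9763 to 0.9811. The third DMSO array stood apart from the other 2 of its group. On it, 184 genes lay at least 1 unit below the mean of the other 2, against 0 to 8 genes on the 5 other arrays. Its beta-actin 3' probe set exceeded the 5' one by 1.32 units, against 1.71 on both of the other DMSO arrays, 1.57 to 1.73 on the BRD0476 arrays and 1.36 to 1.46 on the untreated arrays. For the GAPDH control this excess was 0.11 units, against 0.17 and 0.22 on the other DMSO arrays and 0.09 to 0.12 on the BRD0476 arrays. The part of these differences in the results was not tested. Some results in which the third DMSO array stood apart are given with and without it, and a result given once may also depend on it. The counts of the lists without it were added after the data were seen.

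Promoter sequence is shown for 6 genes, as examples of elements just upstream of genes that moved. Each line gives the 250 bases before the annotated start, from RefSeq (build GRCr8), 5' to 3' on the gene's strand, with the matches that the next sentences name in capitals. Irf1 (chr10:38417685-38417934, plus strand) has a GAS match. Igtp (chr10:42874797-42875046, plus strand) has a GAS and an ISRE core match. Gbp2 (chr2:234005477-234005726, plus strand) has an ISRE core match near its start. Tap1 (chr20:4668544-4668793, minus strand) has an ISRE core and a kappaB-like match. Nfkbiz (chr11:58251471-58251720, plus strand) has a kappaB-like match and is a gene that rose. Ccnb1 (chr2:33655226-33655475, minus strand) stands for the mitotic genes that rose and has 2 CCAAT boxes.
Irf1: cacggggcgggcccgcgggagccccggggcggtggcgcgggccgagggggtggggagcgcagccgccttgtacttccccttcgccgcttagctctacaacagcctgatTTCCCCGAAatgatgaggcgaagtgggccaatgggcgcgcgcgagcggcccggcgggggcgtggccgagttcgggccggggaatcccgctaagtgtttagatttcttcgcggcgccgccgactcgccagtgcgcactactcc
Igtp: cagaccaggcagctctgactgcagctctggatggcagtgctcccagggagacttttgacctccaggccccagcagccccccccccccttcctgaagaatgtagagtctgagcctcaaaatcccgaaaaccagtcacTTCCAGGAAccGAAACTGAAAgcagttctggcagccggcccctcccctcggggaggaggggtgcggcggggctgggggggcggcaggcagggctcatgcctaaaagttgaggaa
Gbp2: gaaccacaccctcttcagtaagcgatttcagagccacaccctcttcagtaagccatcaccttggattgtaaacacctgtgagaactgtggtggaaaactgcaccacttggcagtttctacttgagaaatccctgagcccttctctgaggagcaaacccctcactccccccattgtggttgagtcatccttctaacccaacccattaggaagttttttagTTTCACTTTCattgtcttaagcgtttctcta
Tap1: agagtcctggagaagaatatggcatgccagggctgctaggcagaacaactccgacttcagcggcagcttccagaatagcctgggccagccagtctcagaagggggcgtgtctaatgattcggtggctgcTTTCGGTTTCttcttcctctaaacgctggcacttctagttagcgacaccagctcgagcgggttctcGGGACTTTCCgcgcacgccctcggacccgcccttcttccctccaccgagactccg
Nfkbiz: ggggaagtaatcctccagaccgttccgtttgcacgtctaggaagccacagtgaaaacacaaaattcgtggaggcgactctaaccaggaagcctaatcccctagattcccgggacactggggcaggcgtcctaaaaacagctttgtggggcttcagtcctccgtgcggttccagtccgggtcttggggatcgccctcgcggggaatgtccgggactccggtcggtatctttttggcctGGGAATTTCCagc
Ccnb1: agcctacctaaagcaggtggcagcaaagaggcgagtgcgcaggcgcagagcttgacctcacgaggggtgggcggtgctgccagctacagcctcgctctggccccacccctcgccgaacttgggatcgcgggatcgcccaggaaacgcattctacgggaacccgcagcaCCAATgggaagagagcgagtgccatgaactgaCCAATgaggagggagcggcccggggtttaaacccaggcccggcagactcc

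The motifs were searched on both strands as GAS TTCNNNGAA, ISRE core GAAA, any 2 bases, GAAA, kappaB-like GGG, any 2 bases, TTTCC, and CCAAT box CCAAT, where N is any base; none of the capitalised matches overlap. The ISRE core was present in 3.29% of all 27457 RefSeq windows and in 2.66% of the 11700 measured genes that could be matched to one. It was present in 46 of 402 matched genes that fell 2-fold or more (11.4%), in 9 of 21 that fell 8-fold or more (42.9%), and in 2 of 244 that rose 2-fold or more (0.82%). GAS was in 7.52% of all windows and 6.13% of the matched measured genes. It was in 9.95% of the genes that fell 2-fold and in 4.51% of those that rose 2-fold. The kappaB-like motif was in 1.28% of all windows and 1.51% of the matched measured genes. It was in 1.74% of the genes that fell 2-fold and in 1.23% of those that rose 2-fold. The CCAAT box was in 34.3% of all windows and 35.1% of the matched measured genes. It was in 34.8% of the genes that fell 2-fold, 42.9% of the 21 that fell 8-fold and 36.1% of those that rose 2-fold. A match is only a run of letters, and what binds there was not measured.

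With cytokines present, BRD0476 moved 6261 of 14217 genes (44.0%): 3506 rose (24.7%) and 2755 fell (19.4%), around a median difference over all genes of 0.003. At 2-fold or more, 294 genes rose (2.07%) and 502 fell (3.53%), so the large changes leaned to falls. Without the third DMSO array, 315 rose and 631 fell by 2-fold or more. For 50.2% of all genes, the 3 arrays of one group all lay beyond the 3 of the other, 27.7% higher and 22.5% lower with BRD0476. The median standard error of a difference was 0.102.

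**Figure D1:**
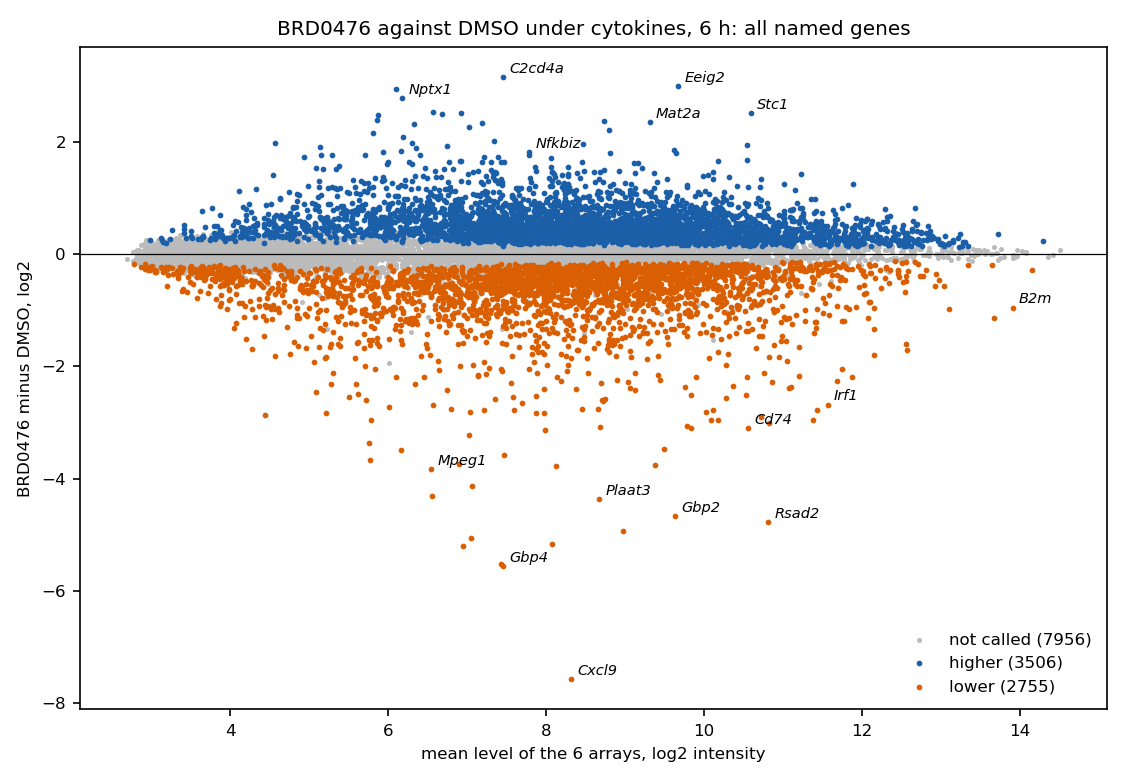
Difference between BRD0476 and DMSO with cytokines at 6 h (vertical axis, log2) against the mean level of the 6 arrays (horizontal axis, log2 intensity), 1 point per gene, coloured where the adjusted p was under 0.05. Falls extend to -7.57 (Cxcl9), rises to 3.15 (C2cd4a), with 3506 genes higher and 2755 lower.

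Cxcl9, a chemokine that draws T cells through the receptor CXCR3, changed most. With DMSO its level was 12.09, 12.06 and 12.16 on the 3 arrays, and with BRD0476 4.21, 4.75 and 4.64, near the untreated mean of 4.03. The groups did not overlap, and the difference of -7.57 ± 0.23 is a 189-fold fall (adjusted p = 1.4e-15). Gbp4, a guanylate-binding GTPase, went from 10.27, 10.37 and 10.09 to 4.91, 4.77 and 4.37, a fall of 47.2-fold (-5.56 ± 0.14). C1s, a protease that starts the classical complement cascade, went from 10.20, 10.23 and 10.15 to 4.92, 4.54 and 4.57 (-5.52 ± 0.12). In both genes every DMSO array lay far above every BRD0476 array, and arrays of a group lay close together. The other large falls, from -5.19 ± 0.13 to -3.76 ± 0.15, were in Ifit2, Tmem140, RGD1309362, Ifgga2l1, Rsad2, Gbp2, Plaat3, Ifitm3, Batf2, Mpeg1, RT1-Bb and Rtp4.

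Of the 15 largest rises, C2cd4a led: 6.15, 5.95 and 5.54 with DMSO and 9.0, 9.07 and 9.02 with BRD0476 (3.15 ± 0.13, adjusted p = 1.21e-13). Stc1, which encodes the hormone stanniocalcin, had levels of 9.28, 9.27 and 9.48 with DMSO and 11.84, 11.89 and 11.82 with BRD0476 (2.51 ± 0.08), against an untreated mean of 11.60. Mat2a, the enzyme that makes S-adenosylmethionine, went from 7.98, 8.03 and 8.40 to 10.49, 10.48 and 10.49 (2.35 ± 0.10), and untreated cells had 10.42. In each of these 3 genes all BRD0476 arrays were above all DMSO arrays. Rem2, a small GTPase that restrains voltage-gated calcium channels, rose by 2.49 ± 0.11, Elovl6, a fatty acid elongase, by 2.26 ± 0.10, and Gria2, an AMPA receptor subunit, by 2.38 ± 0.11. Eeig2, Ptprh, Nptx1, Ano4, Mfsd2a, Slc16a12, Lpcat1, Lrp8 and Inhba rose by 2.32 to 2.99.

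**Figure D2:**
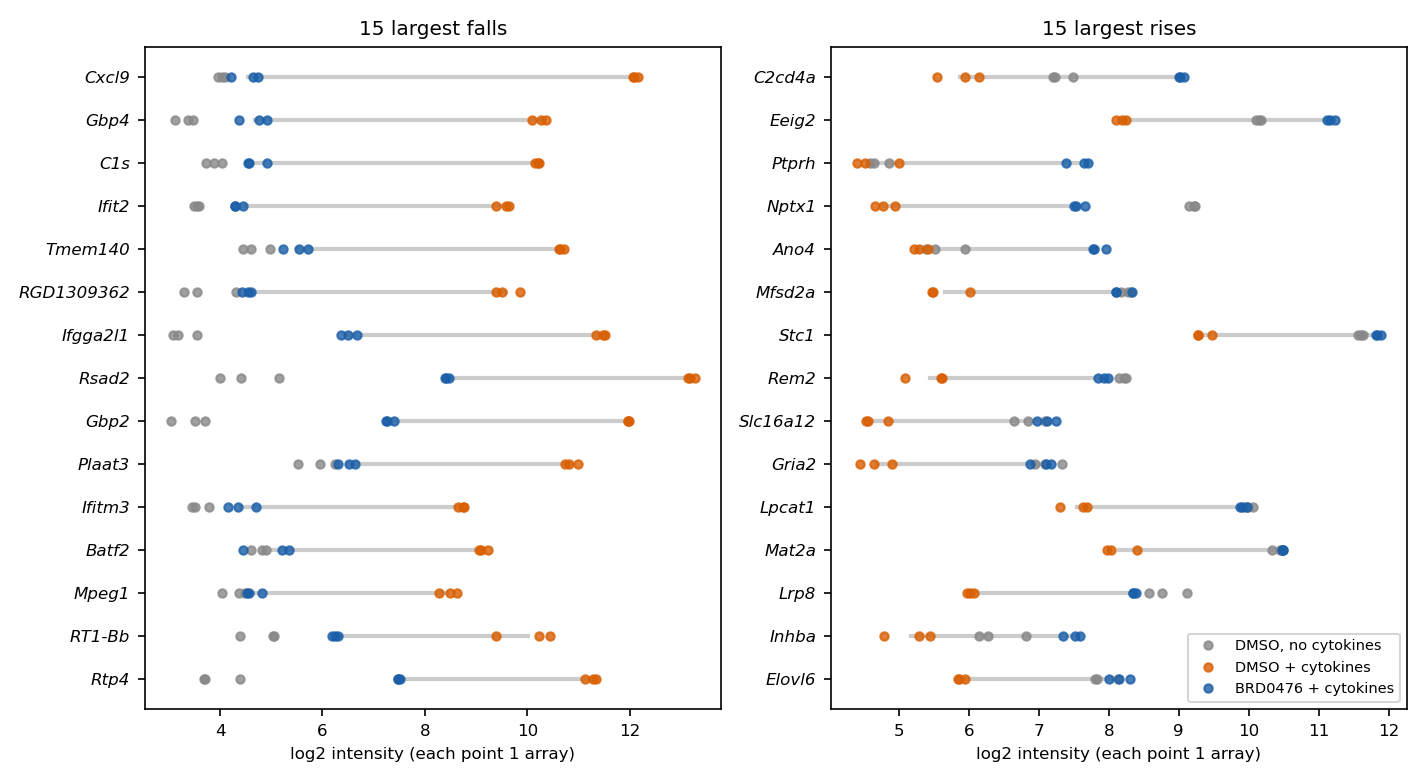
Level on each array (log2 intensity, 1 point per array) of the 15 genes that fell most (left) and rose most (right), for untreated cells, cytokines with DMSO and cytokines with BRD0476. The grey line joins the means of the last 2 groups; Cxcl9 with BRD0476 lies near its untreated level, Rsad2 stays above it, and C2cd4a, Eeig2, Ptprh and Ano4 lie beyond it.

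The same genes were also described by 51 lists of pathways and cell type markers. In each list the count of members that rose or fell is to be read against 24.7% and 19.4% over all genes and the median against 0.003. For cytokines against none in DMSO the shares over all genes are 24.3% raised and 27.4% lowered. At an unadjusted p under 0.05 in limma, 7083 of all 14217 genes differed between BRD0476 and DMSO with cytokines, in either direction. Where 5 or fewer members of a list went one way, most are named even if the rule for named genes did not pick them, and these were chosen after their values were seen. Cytokine effects in DMSO are given beside the compound's effects; they share the 3 DMSO arrays with cytokines, so the 2 are not independent.

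**Figure D3:**
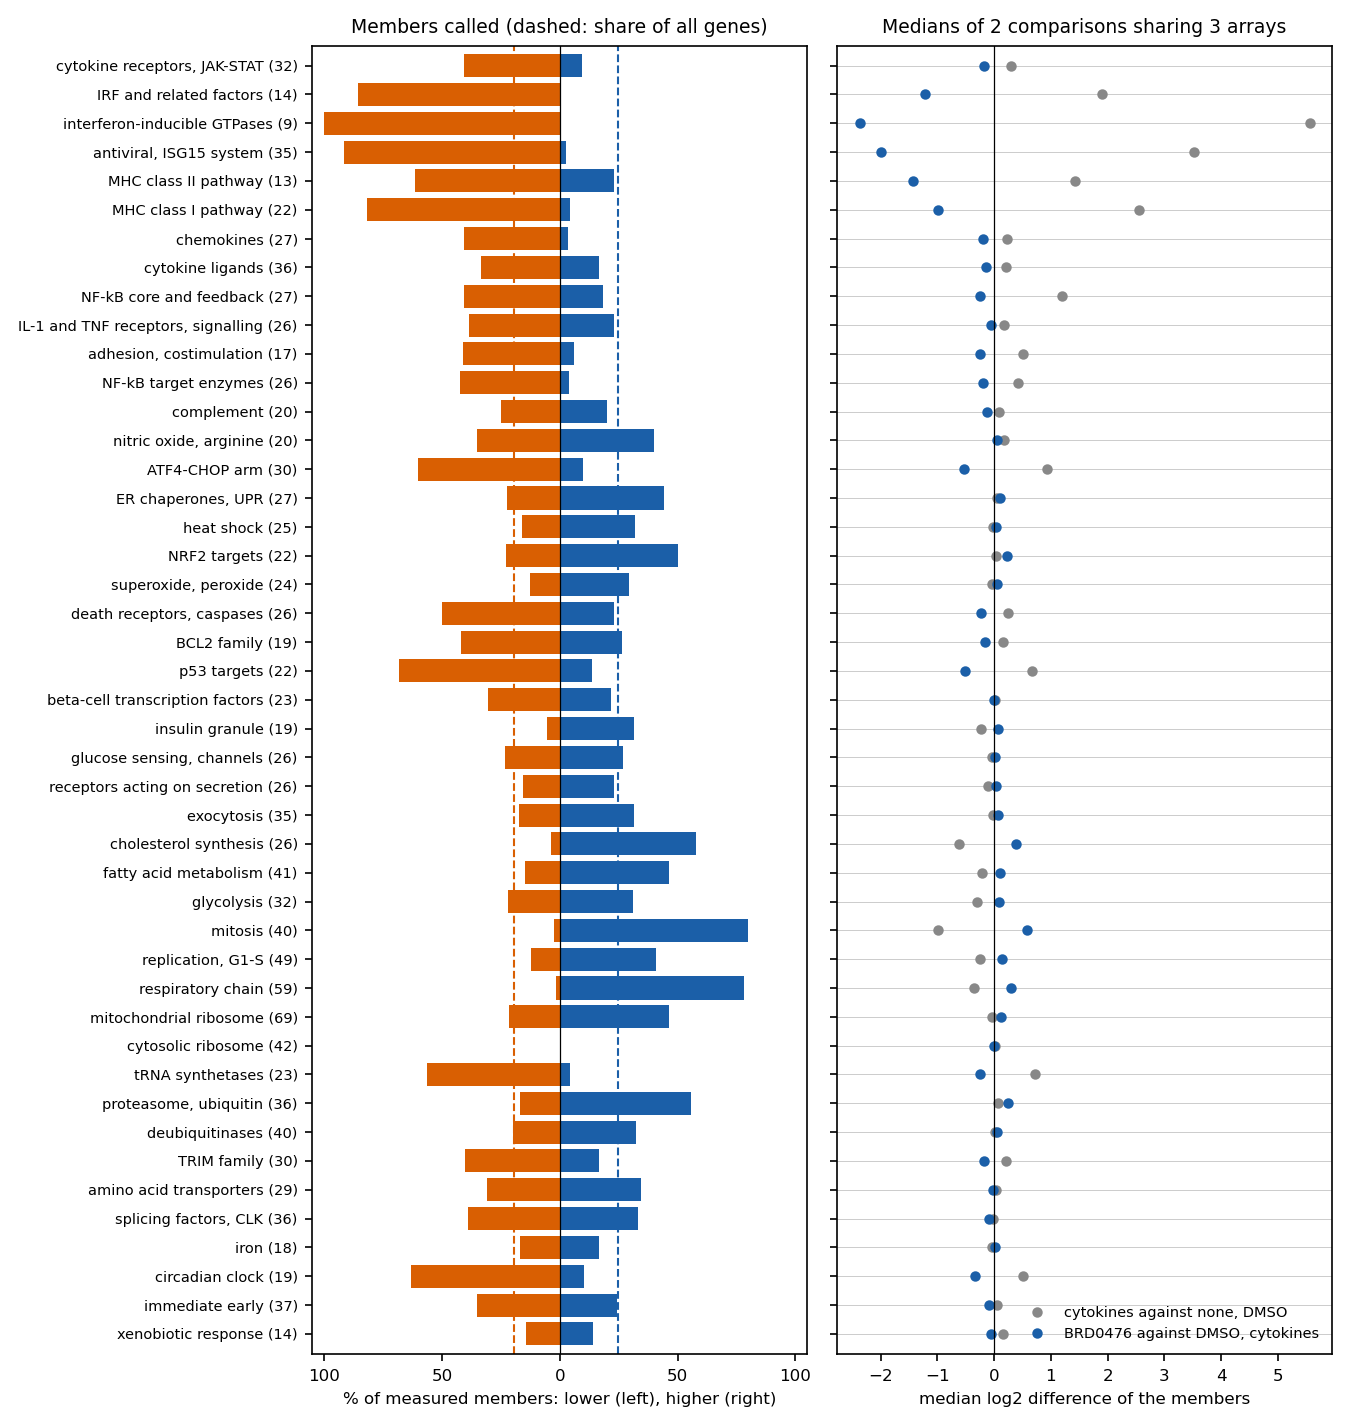
Left, share of the measured members of each list that fell (orange, to the left) or rose (blue, to the right) with BRD0476, with dashed lines at the share of all genes (19.4% and 24.7%) and the number measured in brackets. Right, median log2 difference of the members for BRD0476 against DMSO with cytokines and for cytokines against none in DMSO; GTPases fell by a median of 2.37 and mitosis genes rose by a median of 0.58.

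Of 32 measured cytokine receptor and JAK-STAT genes, 13 fell, 3 rose and 16 were not called (median -0.18; the cytokines with DMSO had raised 18). The receptor chains and kinases of the interferon-gamma pathway went different ways. Ifngr1, the ligand-binding chain of the interferon-gamma receptor, was at 9.57, 9.48 and 9.53 with DMSO and 9.52, 9.61 and 9.51 with BRD0476 (0.02 ± 0.07, adjusted p = 0.875), and Jak1 differed by 0.05 ± 0.05 (adjusted p = 0.439). Ifngr2, the second receptor chain, rose by 0.56, Il6st, the shared receptor chain gp130, by 0.45, and Pias1, a SUMO ligase that restrains STAT proteins, by 0.35. Jak2, the other kinase of the interferon-gamma receptor, fell from 8.50, 8.87 and 9.15 to 7.54, 7.74 and 7.64 (-1.20 ± 0.14, adjusted p = 3.21e-07). Stat2, a partner of IRF9, had levels of 11.81, 11.62 and 11.26 with DMSO and 9.07, 8.90 and 9.02 with BRD0476 (-2.56 ± 0.13), against an untreated mean of 7.32. Socs1, which blocks JAK kinases, went from 6.14, 6.26 and 5.90 to 4.74, 3.90 and 4.66 (-1.66 ± 0.20), with no overlap, and Usp18, which removes ISG15 and restrains interferon receptors, fell by 2.90 ± 0.16.

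Of 14 interferon regulatory and related transcription factors, 12 fell, 0 rose (1 at an unadjusted p under 0.05 in limma) and 2, Irf3 and Irf8, were not called, with a median of -1.23. The cytokines had raised 13 of them (median 1.89). Irf1, an early interferon target, had levels of 12.95, 12.95 and 12.82 with DMSO and 10.24, 10.27 and 10.16 with BRD0476, both above the untreated mean of 8.17. The 2 groups lay much farther apart than the arrays within each (-2.68 ± 0.11, 6.41-fold, adjusted p = 1.06e-13). Irf7, which amplifies type I interferon, fell (-3.0 ± 0.10), as did Irf9, the DNA-binding part of the ISGF3 complex (-2.57 ± 0.12). Batf2, an AP-1 family factor, had levels of 9.23, 9.10 and 9.05 with DMSO and 5.2, 5.34 and 4.45 with BRD0476 (-4.13 ± 0.18). Batf2 then differed from untreated cells by 0.22 (adjusted p = 0.427), whereas Irf1 and Irf7 stayed 2.06 and 3.18 above untreated cells.

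All 9 measured interferon-inducible GTPases fell (median -2.37), after the cytokines had raised all 9 by a median of 5.56. Besides Gbp4, Gbp2 went from 11.96, 11.99 and 11.96 to 7.39, 7.26 and 7.24 (-4.67 ± 0.38) and Igtp from 11.72, 11.63 and 11.64 to 8.69, 8.81 and 8.63 (-2.95 ± 0.12). Neither pair of groups overlapped, and both genes stayed above untreated cells, by 3.87 and 2.61. Mx1, which blocks influenza replication, fell by 2.51 ± 0.10 and stayed 5.66 above untreated cells. An ISRE core stands in 6 of the 8 GTPase promoters found (75.0%) and a GAS in 4, among them the Igtp promoter shown above.

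Of 35 antiviral and ISG15-system genes, 32 fell, 1 rose and 2 were not called (median -2.0; the cytokines had raised 33). Rsad2, the antiviral enzyme viperin, had levels of 13.17, 13.14 and 13.27 with DMSO and 8.40, 8.41 and 8.48 with BRD0476 (-4.77 ± 0.41, 27.2-fold), against 4.52 in untreated cells. Ifit2, which binds foreign RNA, fell by 5.19 ± 0.13 to within 0.81 of the untreated mean, and Ifit3 went from 7.52, 7.23 and 7.57 to 4.13, 4.15 and 3.94 (-3.37 ± 0.14). Ifitm3, which blocks virus entry at membranes, fell by 4.32 ± 0.17. The one that rose was Myd88 (0.48), the adaptor of IL-1 and Toll-like receptors. An ISRE core stands in 18 of 28 promoters of this list (64.3%).

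Genes of antigen presentation fell for both MHC classes. Of 13 genes of the class II pathway, 8 fell, 3 rose and 2 were not called (median -1.42; cytokine median 1.42). Ciita, the master activator of class II genes, had levels of 5.99, 7.06 and 6.18 with DMSO and 4.94, 4.84 and 5.18 with BRD0476, beside 4.99 untreated (-1.43 ± 0.20, adjusted p = 5.64e-06). Its target Cd74, the invariant chain, went from 12.19, 12.10 and 12.06 to 9.02, 8.92 and 9.10 (-3.10 ± 0.13) and stayed 5.51 above untreated cells. RT1-Da (-3.10 ± 0.16), RT1-DMb (-3.07 ± 0.16) and RT1-Bb (-3.78 ± 0.23) fell too. The 3 that rose were Rfxap (0.45) and Rfxank (0.54), subunits of the RFX complex, and Ifi30 (0.73), a lysosomal thiol reductase. These RT1 genes belong to a multigene family, so their probe sets may share signal.

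Of 22 genes of the class I pathway, 18 fell, 1 rose and 3 were not called (median -0.99; cytokine median 2.55). Tap1, a chain of the peptide transporter, had levels of 12.91, 12.83 and 12.85 with DMSO and 10.05, 9.83 and 9.84 with BRD0476 (-2.95 ± 0.09, adjusted p = 2.25e-15), with 7.33 in untreated cells. Tap2 (-2.38 ± 0.08), the immunoproteasome subunit Psmb9 (-1.60 ± 0.07) and the class I gene RT1-S3 (-2.05 ± 0.07) fell too. B2m, the light chain of class I molecules, fell less, from 14.41, 14.37 and 14.38 to 13.46, 13.45 and 13.40 (-0.95 ± 0.06), and none of its 6 arrays overlapped between groups. The gene that rose was the chaperone Canx (0.22). An ISRE core stands in 8 of 19 promoters of the list (42.1%) and a kappaB-like motif in 3 (15.8%). The Tap1 promoter shown above has both.

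Of 27 chemokines, 11 fell, 1 rose and 15 were not called (median -0.20; the cytokines had raised 14). The 3 ligands of CXCR3 fell by unequal amounts. Cxcl10 went from 12.67, 12.88 and 12.90 to 10.11, 10.05 and 9.99 (-2.77 ± 0.47), with an untreated mean of 4.01, and Cxcl11 from 13.58, 13.63 and 13.59 to 12.65, 12.62 and 12.60 (-0.98 ± 0.28, adjusted p = 0.00692). Cxcl9 fell far more, as given above, and both of these stayed above untreated cells, by 6.04 and 5.13. Ccl5, which draws T cells and monocytes, went from 7.5, 7.17 and 7.46 to 4.62, 4.65 and 4.69 (-2.73 ± 0.17) and Ccl19 from 6.68, 6.25 and 6.0 to 3.93, 3.84 and 3.80 (-2.45 ± 0.22). Against untreated cells they then differed by 0.15 and 0 (adjusted p = 0.598 and 0.992). Cxcl1, a neutrophil chemokine, was the one that rose (0.73).

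Of 36 cytokine ligand genes, 12 fell, 6 rose and 18 were not called (median -0.14). Il15, which sustains memory T cells and natural killer cells, had levels of 10.03, 10.21 and 9.84 with DMSO and 7.5, 7.37 and 7.35 with BRD0476, against 7.61 untreated (-2.62 ± 0.12). Tnfsf10, the death ligand TRAIL, went from 8.02, 7.90 and 7.97 to 5.54, 5.87 and 5.23 (-2.42 ± 0.18), and Il7 fell by 1.61 ± 0.18. Tnf moved the other way. Its levels were 6.63, 6.21 and 6.35 with DMSO and 7.35, 7.42 and 7.34 with BRD0476 (0.98 ± 0.17, adjusted p = 9.42e-05), though 1 of its 2 probe sets was not called and their mean gave 0.40 (adjusted p = 0.0753). Inhba, the activin A subunit, rose by 2.32 ± 0.17.

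**Figure D4:**
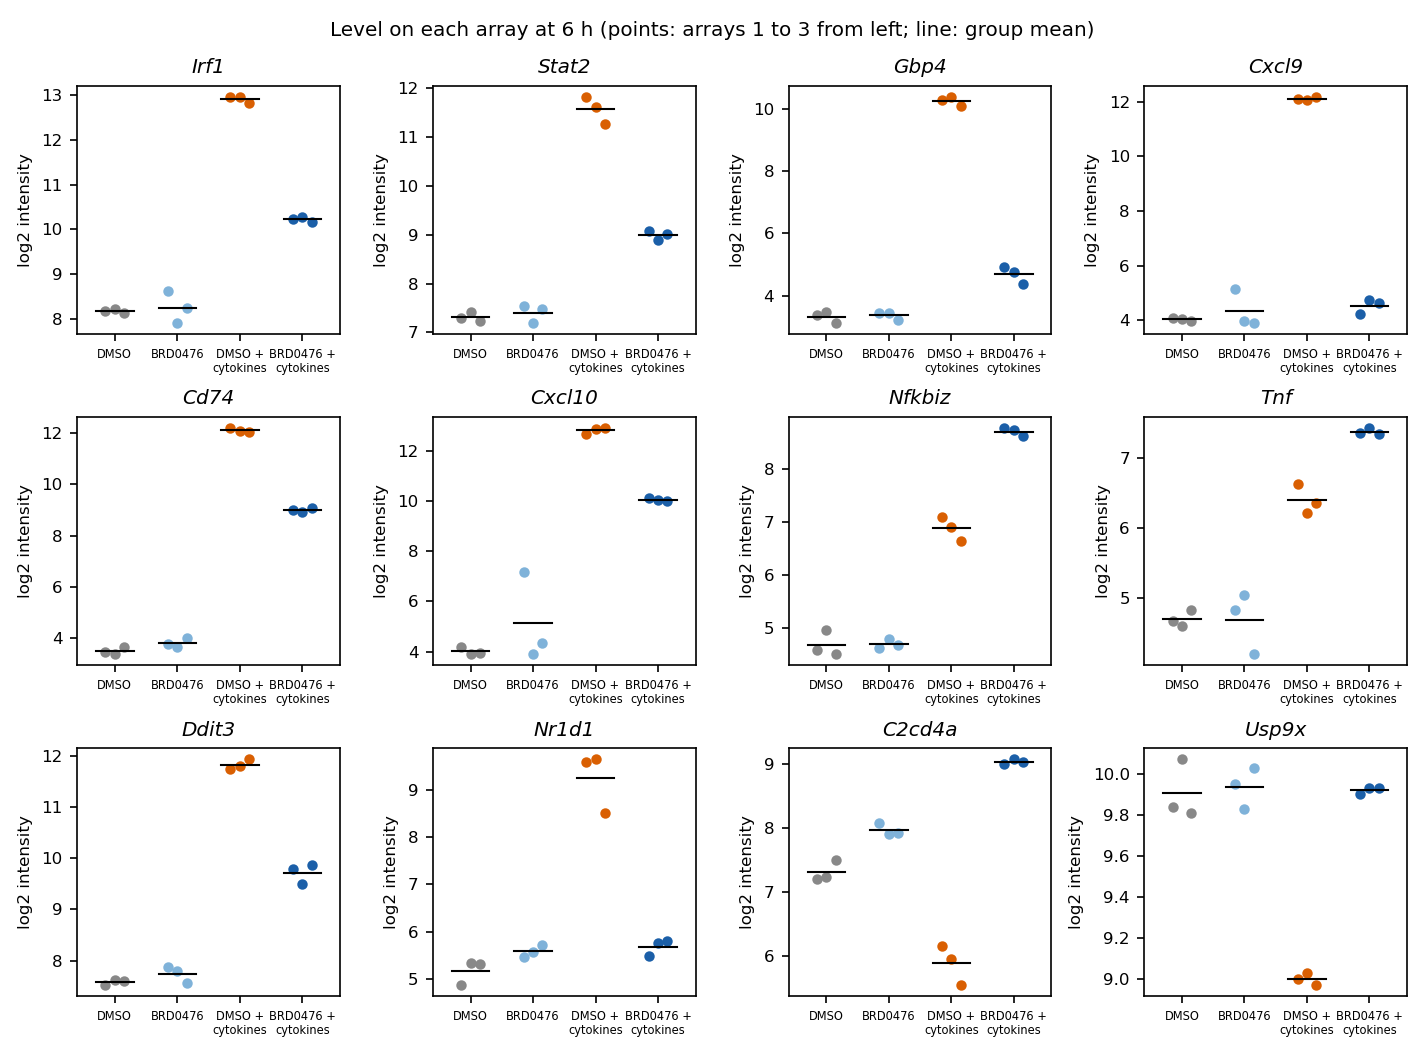
Level on each array (log2 intensity) of 12 genes in the 4 groups at 6 h; points are arrays 1 to 3 of a group from left to right and lines are group means. Irf1, Stat2, Gbp4, Cxcl9, Cd74, Cxcl10, Ddit3 and Nr1d1 are lower with BRD0476 than with DMSO under cytokines, Nfkbiz, Tnf, C2cd4a and Usp9x are higher, and the third DMSO array with cytokines is low for Nr1d1.

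Genes of the NF-κB pathway went both ways. Of 27 core and feedback genes, 11 fell, 5 rose and 11 were not called (median -0.24), whereas the cytokines had raised 20 (median 1.20). Nfkbiz, an atypical IκB protein that turns on secondary NF-κB genes, had levels of 7.10, 6.91 and 6.64 with DMSO and 8.76, 8.72 and 8.61 with BRD0476 (1.81 ± 0.13, adjusted p = 2.12e-10). Untreated cells had 4.69, so this cytokine-raised gene was higher still with the compound. Nfkbia, the classical IκB inhibitor, was at 10.90, 10.95 and 11.19 and 11.24, 11.28 and 11.31 (0.26 ± 0.08, adjusted p = 0.0121), and this call was lost without the first or the second DMSO array (adjusted p = 0.0738 and 0.0545). Traf3 (0.38), Nfkbid (0.37) and Bcl3 (0.28) were the others that rose. Cyld, a deubiquitinase that damps NF-κB (-0.91 ± 0.10), the adaptor Traf2 (-0.91 ± 0.09) and the ubiquitin ligase Birc2 (-0.89 ± 0.07) fell. Without the third DMSO array 3 rose and 12 fell.

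Of 26 IL-1 and TNF receptor and signalling genes, 10 fell, 6 rose and 10 were not called (median -0.06). The decoy receptor Tnfrsf11b (-1.34 ± 0.10) and Il18bp, which neutralises IL-18 (-1.72 ± 0.14), fell. The kinases Ripk2 (-1.62 ± 0.16) and Irak2 (-1.37 ± 0.13) fell too. Ripk2 went from 11.61, 11.71 and 11.79 to 9.98, 10.16 and 10.10, far above the untreated mean of 6.19. Of 17 adhesion and costimulation genes, 7 fell and 1, the integrin Itgb1 (0.30), rose (median -0.25; without the third DMSO array 2 rose). Icam1, which binds leukocyte integrins, had levels of 11.20, 11.22 and 10.73 with DMSO and 9.37, 9.26 and 9.27 with BRD0476 (-1.75 ± 0.18), against 4.21 untreated. Cd40 (-1.36 ± 0.18), Tnfrsf14 (-1.23 ± 0.16) and Cd47, a signal that blocks engulfment (-0.79 ± 0.09), fell.

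Of 26 NF-κB target enzymes and related genes, 11 fell and 1 rose (median -0.20; without the third DMSO array 2 rose). Lcn2, an iron-binding protein of acute inflammation, was at 8.65, 8.52 and 7.37 with DMSO and 5.33, 5.54 and 5.38 with BRD0476. The groups did not overlap (-2.76 ± 0.28), and the third DMSO array was lowest of its group. Without that array the difference was -3.17. Gadd45b, a stress-induced regulator of MAP kinases, went from 10.92, 10.89 and 11.12 to 9.01, 9.23 and 9.17 (-1.84 ± 0.11). Sod2, the mitochondrial superoxide dismutase, fell by 0.56 ± 0.08 and kept 1.58 over untreated cells. Ier3, a survival gene, rose from 8.17, 8.07 and 8.33 to 9.67, 9.66 and 9.68 (1.48 ± 0.08), above the untreated mean of 7.15.

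Of 20 complement genes, 5 fell and 4 rose (median -0.13). The C1 proteases and their inhibitor fell deeply: besides C1s, C1r went from 11.25, 11.23 and 11.50 to 8.23, 8.24 and 8.29 (-3.07 ± 0.14) and Serping1, the C1 inhibitor, from 11.48, 11.25 and 10.94 to 7.77, 7.81 and 7.69 (-3.46 ± 0.17). C3 (-0.42) and Cfi (-0.31) fell less. Cd55, which protects cells from complement, rose by 0.76 ± 0.08, and C1qa (0.33), C5 (0.30) and C4bpb (0.29) rose slightly.

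Of 20 nitric oxide and arginine genes, 8 rose and 7 fell (median 0.06). The probe set for Nos2, the inducible nitric oxide synthase, read 6.02, 6.14 and 5.78 with DMSO and 5.97, 6.0 and 6.17 with BRD0476 (0.07 ± 0.11, adjusted p = 0.661). It had not moved with the cytokines either (0.10 against untreated), so it carried no cytokine signal on these arrays. Ass1, which recycles citrulline to arginine, had levels of 11.50, 11.44 and 10.59 and 10.0, 9.95 and 9.91 (-1.22 ± 0.23, adjusted p = 0.000134) against 7.47 untreated. Its difference was -1.52 without the third DMSO array. Sat1, the polyamine acetylase, fell by 1.35 ± 0.10, while Qdpr and Gchfr of the tetrahydrobiopterin pathway rose by 0.76 ± 0.06 and 0.62 ± 0.09.

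Most stress genes of the ATF4 and CHOP arm fell. Of 30, 18 fell, 3 rose and 9 were not called (median -0.53; cytokine median 0.94). Ddit3, which encodes the pro-death factor CHOP, had levels of 11.75, 11.79 and 11.93 with DMSO and 9.79, 9.49 and 9.86 with BRD0476, against 7.59 untreated (-2.11 ± 0.10, adjusted p = 1.46e-12). Atf3 went from 9.22, 9.08 and 9.21 to 6.93, 6.72 and 6.66 (-2.40 ± 0.19), Trib3, a target of CHOP, from 11.25, 11.13 and 11.22 to 9.57, 9.43 and 9.27 (-1.78 ± 0.12), and Ppp1r15a, the phosphatase subunit GADD34, fell by 1.59 ± 0.18. In none of these 4 genes did the groups overlap. The 3 that rose were Phgdh (0.39) and Psat1 (0.19) of serine synthesis and the oxidase Ero1a (0.28). The C/EBP-ATF element TGATGNAA stands in 6 of 26 promoters of this list (23.1%), against 3.27% of all windows and 2.01% of the matched measured genes. Other lists had similar shares, with 4 of 14 BCL2 family promoters (28.6%) and 5 of 21 tRNA synthetase promoters (23.8%).

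Of 27 chaperones and related genes of the endoplasmic reticulum, 12 rose, 6 fell and 9 were not called (median 0.11). Hspa5, the chaperone BiP, was at 13.39, 13.46 and 13.43 with DMSO and 13.48, 13.47 and 13.53 with BRD0476 (0.06 ± 0.06, adjusted p = 0.406). The cochaperone Dnajb9 fell by 1.10 ± 0.14. Selenos (-0.60 ± 0.05), Sel1l (-0.54 ± 0.09) and Wfs1 (-0.56 ± 0.12), which act in degradation or calcium balance of this compartment, fell less. Of 25 heat shock genes, 8 rose and 4 fell (median 0.03). The rises were led by Dnajb4 (0.74 ± 0.08) and Hsph1 (0.64 ± 0.10), while Hsf1 fell by 0.65 ± 0.16 and Hspa4l by 0.51.

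Of 22 NRF2 target genes, 11 rose and 5 fell (median 0.22). Nqo1, a quinone reductase, had levels of 5.78, 5.95 and 5.61 with DMSO and 7.84, 7.71 and 7.58 with BRD0476 (1.93 ± 0.12, adjusted p = 6.09e-11), above the untreated mean of 6.81. Gstm1 rose by 1.52 ± 0.13, Srxn1 by 1.39 ± 0.09 and the exporter Abcc4 by 1.05 ± 0.11; 1 of 3 probe sets of Srxn1 was called the other way. The 5 that fell were Abcc1 (-0.49), Bach1 (-0.46), Keap1 (-0.32), Osgin1 (-0.30) and Sqstm1 (-0.29). Of 24 superoxide and peroxide genes, 7 rose by at most 0.37 ± 0.07 and 3 fell, namely Mt2A (-0.91 ± 0.13), Sod2 (-0.56 ± 0.08) and Txn2 (-0.26) (median 0.04).

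Of 26 death receptor and caspase genes, 13 fell, 6 rose and 7 were not called (median -0.23). Casp4, an inflammatory caspase, had levels of 9.07, 9.35 and 9.25 with DMSO and 7.14, 6.96 and 7.03 with BRD0476 (-2.18 ± 0.12), against 4.41 untreated, and Casp12 went from 6.56, 6.93 and 6.78 to 4.48, 4.34 and 4.50 (-2.32 ± 0.14). Gsdmd, the pore-forming gasdermin D, fell by 1.25 ± 0.13. Fas, a death receptor, differed less, at 9.57, 9.75 and 9.67 and 9.09, 9.31 and 9.24 (-0.45 ± 0.11, adjusted p = 0.00188), and this rests on 1 of its 3 probe sets: another was called the other way, and the mean of the 3 gave 0.03 (adjusted p = 0.831).

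Of 19 BCL2 family genes, 8 fell, 5 rose and 6 were not called (median -0.15). Bbc3, the death activator PUMA, had levels of 9.73, 9.76 and 9.35 with DMSO and 8.04, 8.04 and 8.16 with BRD0476 (-1.53 ± 0.10, adjusted p = 8.04e-11), close to 7.82 in untreated cells. Hrk, another BH3-only gene, fell by 1.20 ± 0.13. Bak1, a pore former, had 8.61, 8.88 and 7.42 with DMSO and 6.86, 6.73 and 6.52 with BRD0476 (-1.60 ± 0.34; -2.04 without the third DMSO array). The survival gene Bcl2l1 fell too (-1.11 ± 0.20; -1.43 without that array), while Mcl1 differed by -0.15 ± 0.10 (adjusted p = 0.208). The 5 that rose were Bnip3 (0.67), Bad (0.48), Bmf (0.44), Bnip3l (0.32) and Bok (0.29), all known as death-promoting or mitophagy members.

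Of 22 p53 targets, 15 fell and 3 rose (median -0.52; cytokine median 0.67). Cdkn1a, which encodes the cell cycle inhibitor p21, had levels of 9.44, 9.57 and 8.75 with DMSO and 7.79, 7.38 and 7.46 with BRD0476 (-1.71 ± 0.21, or -1.97 without the third DMSO array), against 7.62 untreated. Tp53inp1 fell by 1.66 ± 0.15. Ddb2 (0.50), Sesn1 (0.47) and Perp (0.33) rose.

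Most clock genes fell. Of 19, 12 fell, 2 rose and 5 were not called (median -0.34; cytokine median 0.51). Nr1d1, the repressor REV-ERBα, had levels of 9.60, 9.66 and 8.51 with DMSO and 5.47, 5.75 and 5.79 with BRD0476, against 5.17 untreated. The third DMSO array was at least 1 unit below the other 2, and the difference was -3.59 ± 0.25 with it and -3.96 without it (adjusted p = 2.23e-10 and 1.39e-11). Bmal1, a core activator that Nr1d1 represses, fell in the same direction, from 7.71, 7.66 and 7.68 to 5.90, 5.31 and 5.66 (-2.06 ± 0.19). The output factor Dbp went from 10.41, 10.54 and 10.04 to 8.57, 8.43 and 8.55 (-1.81 ± 0.10) and Bhlhe41 from 11.85, 11.84 and 11.74 to 10.16, 10.31 and 10.30 (-1.55 ± 0.08), with no overlap in either. Npas2 (0.80) and the kinase Csnk1d (0.49) rose.

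Of 37 immediate early genes, 13 fell and 9 rose (median -0.10). Myc went from 10.03, 9.98 and 10.08 to 7.67, 7.84 and 7.83 (-2.25 ± 0.07), below the untreated mean of 8.67, and Maff fell by 2.55 ± 0.14. Fos had levels of 3.95, 3.37 and 3.43 with DMSO and 5.58, 5.75 and 5.34 with BRD0476 (1.97 ± 0.18), back at 5.46, and Egr1 went from 7.51, 6.95 and 7.56 to 8.70, 8.88 and 8.84 (1.46 ± 0.11), above the untreated mean of 8.16. Fos and Egr1 thus rose while Maff and Myc fell.

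The insulin genes themselves changed little. Ins1 was at 14.48, 14.46 and 14.49 with DMSO and 14.57, 14.55 and 14.52 with BRD0476 (0.07 ± 0.05, adjusted p = 0.285), and Ins2 at 14.13, 14.15 and 14.27 and 14.44, 14.39 and 14.42 (0.23 ± 0.06, adjusted p = 0.00326). Both lie near the top of the deposited values, the highest of which is 24852.9 on the linear scale. Of 19 insulin granule genes, 6 rose and 1 fell (median 0.07): Iapp, the amyloid hormone, rose by 0.36 ± 0.05, Sytl4, which docks granules, by 0.87 ± 0.12, and the convertase Pcsk2 fell by 0.29 ± 0.10, a call lost without the first or second DMSO array or the first or the third BRD0476 array (adjusted p between 0.0554 and 0.13). Without the third DMSO array 4 granule genes fell.

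Of 23 beta-cell transcription factors, 7 fell and 5 rose (median -0.002). Pdx1, a master regulator of beta cells, had levels of 9.94, 10.04 and 10.10 with DMSO and 10.70, 10.74 and 10.63 with BRD0476 (0.66 ± 0.08, adjusted p = 7.46e-07), with 10.59 in untreated cells. Mafa, an insulin gene activator, went from 11.23, 11.24 and 11.43 to 11.98, 12.01 and 12.02 (0.70 ± 0.07), beside 12.0 untreated. Nkx6-1 rose by 0.51 ± 0.11 but stayed below untreated cells (-1.01). Isl1 (0.67) and Bhlha15 (0.41) also rose. Tcf7l2, a Wnt effector, fell from 8.38, 8.31 and 8.20 to 6.40, 6.40 and 6.0 (-2.03 ± 0.15). St18 (-1.25 ± 0.21) and Mlxipl, the glucose-sensing factor ChREBP (-0.77 ± 0.09), fell too. Gata4 fell by 1.38 ± 0.39, with 8.26, 8.75 and 6.92 on the DMSO arrays. Its difference was -1.91 without the third of these arrays, and the call was lost without the second (-1.0, adjusted p = 0.0548 in limma). Without cytokines, the means with BRD0476 and with DMSO were 9.32 and 8.79 for Nkx6-1, 10.94 and 10.59 for Pdx1, and 12.24 and 12.0 for Mafa. In that setting 2 of the 23 factors rose and 1 fell, where 1.68% and 1.85% of all genes did.

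Among 26 glucose sensing and channel genes, 7 rose and 6 fell (median 0.01; without the third DMSO array 5 and 5). Slc2a2, the glucose transporter GLUT2, went from 13.08, 13.08 and 13.04 to 13.40, 13.45 and 13.39 (0.35 ± 0.06). Kcnma1 and Kcnq1 rose by 0.77 ± 0.10 and 0.59 ± 0.15, and the channels Cacna1h (-0.86 ± 0.16) and Kcnk3 (-0.95 ± 0.17) fell. Of 26 receptors that act on secretion, 6 rose and 4 fell (median 0.02). Adra2a, through which adrenaline lowers insulin release, had levels of 7.37, 7.16 and 7.09 with DMSO and 8.99, 8.94 and 8.83 with BRD0476 (1.71 ± 0.07), short of 9.63 untreated. Ffar2 rose by 0.63 ± 0.12, while Sstr3 (-0.84 ± 0.09), Npy1r (-0.80 ± 0.13), Ptger3 (-0.49) and Egfr (-0.57) fell. Of 35 exocytosis genes, 11 rose and 6 fell (median 0.06): Rab27a rose by 1.15 ± 0.09 and Nsf by 0.94 ± 0.12, whereas Rph3al (-1.44 ± 0.30) and Stx1a (-1.04 ± 0.37) fell. Without the third DMSO array, Rph3al differed by -1.91 and Stx1a by -1.5. The Stx1a levels with DMSO were 8.54, 8.46 and 7.13, and its call was lost without the first or second of these arrays or the second or the third BRD0476 array (adjusted p between 0.0595 and 0.128).

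Most cholesterol genes rose. Of 26 cholesterol synthesis and uptake genes, 15 rose and 1, the efflux pump Abcg1 (-0.41), fell (median 0.39), whereas the cytokines had lowered 21 (median -0.63). Acat2 had levels of 8.77, 8.83 and 8.72 with DMSO and 10.16, 9.92 and 10.07 with BRD0476 (1.28 ± 0.10, adjusted p = 7.72e-10), with 10.25 untreated. Insig1, a sterol sensor, went from 10.19, 10.30 and 10.26 to 11.18, 11.22 and 11.20 (0.95 ± 0.06), and Stard4 and Tm7sf2 rose by 1.10 ± 0.09 and 1.06 ± 0.08. Of 41 fatty acid genes, 19 rose and 6 fell (median 0.11). Elovl6 went from 5.85, 5.95 and 5.86 to 8.0, 8.30 and 8.14, the desaturase Fads1 from 9.46, 9.47 and 9.39 to 10.84, 10.80 and 10.70 (1.34 ± 0.06), and the oxidation enzyme Hadh from 10.54, 10.50 and 10.52 to 11.99, 11.94 and 11.90 (1.42 ± 0.05). All 3 had no overlap between groups.

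Glycolysis genes were mixed: of 32, 10 rose and 7 fell (median 0.08; without the third DMSO array 10 rose and 11 fell). Pfkp, a phosphofructokinase, had levels of 12.36, 12.23 and 12.30 with DMSO and 10.22, 10.10 and 10.03 with BRD0476, beside 10.16 untreated (-2.18 ± 0.09; against untreated -0.05, adjusted p = 0.772). Pfkfb3, which stimulates that step, fell by 1.20 ± 0.08 to below untreated cells (-1.75). Ldhb and Tpi1 rose by 1.0 ± 0.07 and 0.91 ± 0.07.

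Most mitotic genes rose: of 40, 32 rose, 1 fell (Foxm1, -0.37) and 7 were not called (median 0.58). The cytokines had lowered 39 of the 40 (median -0.98), and with BRD0476 35 were still below untreated cells (13.8% of all genes were). Cdk1, the kinase that drives mitosis, had levels of 10.71, 10.69 and 10.80 with DMSO and 11.56, 11.48 and 11.54 with BRD0476 (0.79 ± 0.06, adjusted p = 4.34e-10) against 11.90 untreated. Ccnb1, its cyclin, went from 9.55, 9.47 and 9.66 to 10.52, 10.48 and 10.38 (0.90 ± 0.07) against 10.98. Both thus lay between the DMSO and the untreated level. Kif20a, Nuf2 and Pttg1, of the spindle and chromosome separation, rose by 1.10 ± 0.09, 0.97 ± 0.06 and 0.96 ± 0.06. A CCAAT box stands in 28 of 34 promoters of the list (82.4%), as in the Ccnb1 promoter shown above. The share was as high or nearly so in other lists that rose (95.2% of ER chaperones, 76.2% of cholesterol genes) and in one that fell (72.7% of MHC class II, beside 57.9% of class I).

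Of 49 replication and G1-S genes, 20 rose, 6 fell and 23 were not called (median 0.14). Cdkn2c, a CDK4 and CDK6 inhibitor, rose from 8.43, 8.46 and 8.47 to 9.71, 9.77 and 9.61 (1.25 ± 0.07) and E2f7, a repressor of E2F targets, by 0.94 ± 0.09. Cdkn1a and Myc were the largest falls. An E2F element, TTTNGCGC, stands in 8 of 38 promoters (21.1%), against 1.11% of all windows and 1.62% of the matched measured genes.

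Most nuclear genes of the respiratory chain rose: of 59, 46 rose, 1 fell (Cox4i1, -0.35) and 12 were not called (median 0.30), whereas the cytokines had lowered 49 (median -0.36). With BRD0476, 3 remained lower than in untreated cells. Ndufa4 had levels of 12.28, 12.27 and 12.24 with DMSO and 13.11, 13.08 and 13.07 with BRD0476 (0.82 ± 0.05, adjusted p = 9.82e-12), beside 13.11 untreated. Ndufa11, Ndufb3 and Uqcrh, subunits of complexes I and III, rose by 0.78 ± 0.07, 0.76 ± 0.07 and 0.77 ± 0.07. Of 69 mitochondrial ribosome genes, 32 rose and 15 fell (median 0.12). Mrpl49 went from 9.43, 9.26 and 9.43 to 10.50, 10.47 and 10.48 (1.11 ± 0.06) and Mrps12 and Mrps21 rose by 0.97 ± 0.08 and 0.88 ± 0.06, while Mrpl38 fell (-0.98 ± 0.23, or -1.32 without the third DMSO array). Of 42 cytosolic ribosome genes, 0 were called by limma at an adjusted p under 0.05 (median -0.001, range -0.13 to 0.24). At an unadjusted p under 0.05 in limma, 0 were higher and 3 lower, against 7083 of all 14217 genes in either direction. Limma on centred arrays called 2 falls and on quantile-normalized arrays 1.

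Of 23 tRNA synthetase genes, 13 fell and 1 rose, Gars1 (0.45) (median -0.25; cytokine median 0.72). Wars1, which interferon is known to raise, had levels of 12.47, 12.27 and 12.38 with DMSO and 11.12, 11.20 and 11.22 with BRD0476 (-1.19 ± 0.08), and Kars1 went from 11.65, 11.58 and 11.62 to 10.49, 10.48 and 10.42 (-1.15 ± 0.07). Vars1 (-0.95 ± 0.12) and Rars1 (-0.68 ± 0.07) fell too. Of 36 constitutive proteasome and ubiquitin genes, 20 rose and 6 fell (median 0.25). Psmd8 rose by 0.57 ± 0.08. Psmb7, Adrm1 and Uba1 had the largest falls, but these rest on 2 DMSO arrays: Psmb7 was at 12.46, 12.70 and 11.29 with DMSO and 11.26, 11.19 and 11.24 with BRD0476 (-0.92 ± 0.33; -1.35 without the third DMSO array), and its call was lost without any 1 of the other 5 arrays (adjusted p between 0.0564 and 0.165). Uba1, the main ubiquitin-activating enzyme, had 11.43, 11.33 and 9.86 with DMSO and 9.81, 9.85 and 9.89 with BRD0476, which overlap. Its difference was -1.02 ± 0.39 with all arrays (adjusted p = 0.0383) and -1.53 without the third DMSO array, and the call was lost without any 1 of the other 5 (adjusted p between 0.07 and 0.18).

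Of 40 deubiquitinases, 13 rose and 8 fell (median 0.05; without the third DMSO array 10 rose and 11 fell). Usp9x, which published work has linked to BRD0476, had levels of 9.0, 9.03 and 8.97 with DMSO and 9.90, 9.93 and 9.93 with BRD0476. The groups did not overlap, and arrays of a group lay close together (0.92 ± 0.08, adjusted p = 3.6e-09). The untreated mean was 9.91 (BRD0476 with cytokines minus untreated 0.01, adjusted p = 0.938), and all 4 of its probe sets were called upward. Usp13 rose by 1.35 ± 0.09, and Usp25 fell from 10.16, 10.21 and 10.18 to 8.02, 8.12 and 8.06 (-2.12 ± 0.11). Of 30 TRIM genes, 12 fell and 5 rose (median -0.19; without the third DMSO array 3 rose). Trim34 (-1.85 ± 0.12) and Trim26 (-1.49 ± 0.09) fell, and Trim37 (1.12), Trim45 (0.76), Trim39 (0.39), Trim62 (0.38) and Trim59 (0.24) rose. Trim3 (-1.57 ± 0.32, or -2.0 without the third DMSO array) and Trim46 (-1.19 ± 0.18, or -1.44 without it) fell too.

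Of 29 amino acid transporters, 10 rose and 9 fell (median -0.03; without the third DMSO array 9 and 10). The peptide transporter Slc15a2 went from 4.17, 4.11 and 4.26 to 6.15, 6.19 and 5.94 (1.91 ± 0.13), with 7.34 untreated. Slc38a4 went from 10.54, 10.58 and 10.62 to 11.50, 11.88 and 11.78 (1.14 ± 0.11) and ended above 10.10 in untreated cells. Slc43a2 rose by 1.18 ± 0.15, with 1 of its 2 probe sets called the other way, and the glycine transporter Slc6a9 fell by 1.75 ± 0.28, with 9.47, 9.24 and 7.76 on the DMSO arrays (-2.28 without the third). Of 36 splicing genes, 14 fell and 12 rose (median -0.08). The kinases Clk1 (-1.56 ± 0.08) and Clk4 (-1.23 ± 0.10), which phosphorylate SR proteins, fell, while the SR proteins Srsf5 and Srsf2 rose by 1.62 ± 0.08 and 0.97 ± 0.07. Srsf5 had 8.22, 8.43 and 8.40 with DMSO and 9.95, 9.95 and 10.01 with BRD0476.

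Of 18 iron genes, 3 rose and 3 fell (median 0.01). Slc40a1, the iron exporter ferroportin, had levels of 5.92, 6.0 and 5.95 with DMSO and 7.64, 7.62 and 7.5 with BRD0476 (1.63 ± 0.07), against 8.91 untreated, and the ferrireductase Steap2 rose by 1.38 ± 0.09. Tfrc, the transferrin receptor, rose by 0.42. Besides Lcn2, Cp, the ferroxidase ceruloplasmin, fell (-1.85 ± 0.10), and so did Steap4 (-0.23). Of 14 xenobiotic response genes, 2 rose (Nqo1 and Abcc2, 0.62 ± 0.17) and 2 fell (Tiparp, -0.72 ± 0.07, and Abcb1a, -0.41 ± 0.08).

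Against untreated cells, the cultures with cytokines and BRD0476 still differed in 3968 genes (27.9%), 310 of them 2-fold higher or more (2.18%) and 119 2-fold lower or more (0.837%). Cytokines with DMSO differed from untreated cells in 7345 (51.7%), with 887 (6.24%) higher and 717 (5.04%) lower at 2-fold. Some genes went past the untreated level. C2cd4a ended 1.72 above untreated cells, although the cytokines with DMSO had lowered it by 1.43, and Eeig2 ended 1.03 above them after a cytokine fall of 1.96. Ptprh, a receptor-type tyrosine phosphatase, had levels of 4.40, 4.52 and 5.0 with DMSO and 7.70, 7.39 and 7.64 with BRD0476, and Ano4, of the anoctamin family, 5.42, 5.22 and 5.29 and 7.78, 7.96 and 7.79. Cytokines with DMSO had moved neither of these 2 past the threshold (Ptprh -0.06, adjusted p = 0.797; Ano4 -0.30, adjusted p = 0.0845), and BRD0476 without cytokines had not either (0.10 and 0.03, adjusted p = 0.826 and 0.953). The rise of both appeared with cytokines and compound together, with interaction terms of 2.83 and 2.50 (adjusted p = 3.54e-09 and 7.04e-09). Nfkbiz and Tnf, raised by cytokines, ended 4.01 and 2.68 above untreated cells, and Ier3 2.52. Myc and Pfkfb3 ended below, by 0.88 and 1.75.

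Without cytokines, BRD0476 moved 502 genes at 6 h (3.53%), 239 higher (1.68%) and 263 lower (1.85%), of which 3 (0.0211% of all genes) and 5 (0.0352%) reached 2-fold. These counts depend on single arrays: without the first array of BRD0476 alone 107 were higher, without the second 154 were higher and 143 lower, and without the second untreated array 171 were lower. Across the 14217 genes, the differences with and without cytokines, which share no arrays, correlated at Pearson 0.022 and Spearman 0.022. Of the genes called with cytokines, 359 were also called without (5.73%, or 71.5% of the 502): 132 were higher in both, 89 lower in both and 138 went opposite ways. The median size of the difference over the 6261 genes called with cytokines was 0.493 with and 0.097 without them. The difference between the effects, tested as an interaction, was called for 4717 genes (33.2%).

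Without cytokines, 0 of the 9 GTPases and 2 of the 35 antiviral genes were called, 1 in each direction. At an unadjusted p under 0.05 in limma, 2 GTPases were higher and 1 lower. Over all 14217 genes, 2151 passed that unadjusted threshold without cytokines, in either direction, and the unadjusted counts below are to be read against this. Irf1 differed by 0.08 (adjusted p = 0.805), C1s by -0.05 (adjusted p = 0.902) and Cxcl9 by 0.30 (adjusted p = 0.612). On the first array with BRD0476 alone, 12 genes lay at least 1 unit above the mean of the other 2. Among them were Cxcl9 (5.13 against 3.98 and 3.89), Cxcl10 (7.16 against 3.90 and 4.33) and Cxcl11 (9.28 against 7.37 and 7.66). The others were Rsad2, Gbp2, Ubd, Mx2, Cxcl1, Isg15, Ifgga2l1, Cd69 and LOC100910973. Genes called in the same direction in both settings included Nqo1, by 1.04 without cytokines (adjusted p = 2.9e-05), C2cd4a (0.66), Myc (-0.68), Bmal1 (-0.77), Pfkfb3 (-0.76) and Abcc2 (0.73). For Abcc2 the interaction was not called (-0.12, adjusted p = 0.76), and for Nqo1 it was 0.88 (adjusted p = 0.000407). Trib3 was called in opposite directions, 0.56 without and -1.78 ± 0.12 with cytokines, and the interaction was -2.33 (adjusted p = 8.88e-10). Of the 30 ATF4 and CHOP genes, 8 rose and 0 fell without cytokines, and of the 27 chaperone genes 7 rose and 0 fell (at an unadjusted p under 0.05 in limma 16 and 12 were higher and 0 lower). The 26 cholesterol genes, most of which rose with cytokines, went the other way: 0 rose and 4 fell (median -0.16; at an unadjusted p under 0.05 in limma 0 were higher and 12 lower). Without the first array of BRD0476 alone, 3 ATF4 and CHOP genes and 2 chaperone genes rose and 2 cholesterol genes fell, a setting chosen after the data were seen.

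**Figure D5:**
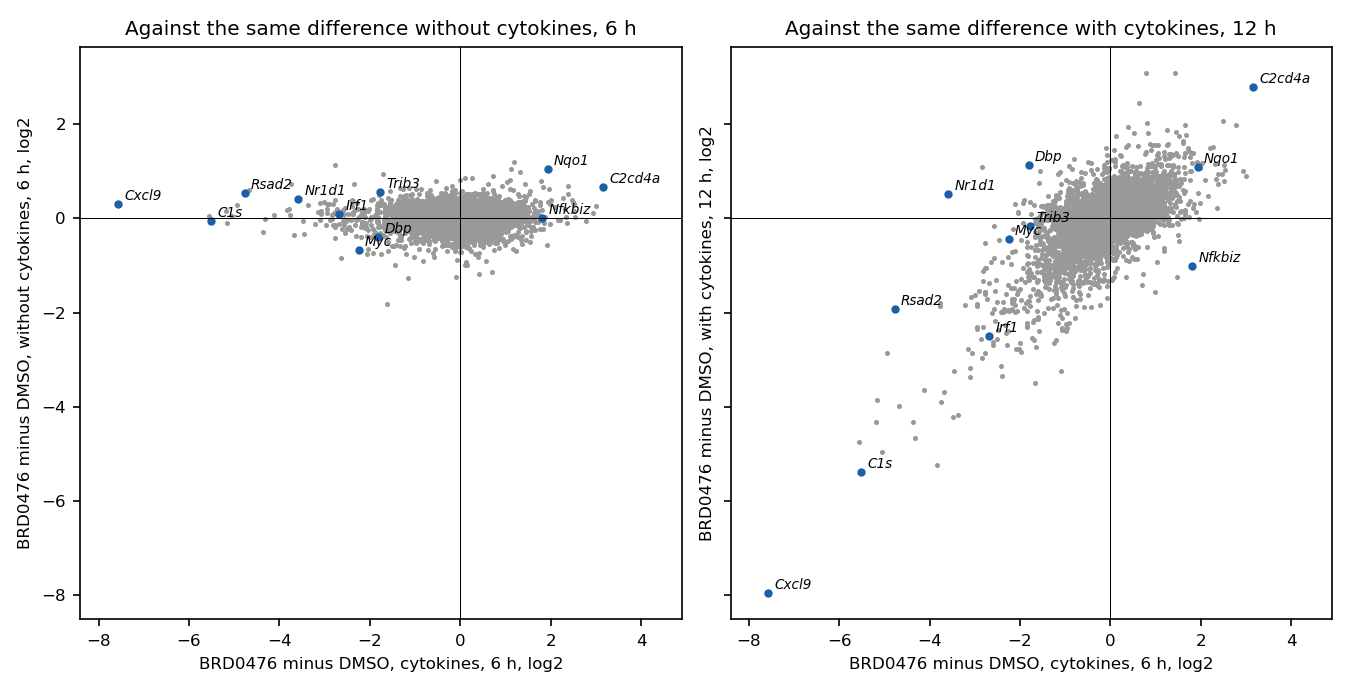
Difference between BRD0476 and DMSO with cytokines at 6 h (horizontal axes, log2) against the same difference without cytokines at 6 h (left) and with cytokines at 12 h (right), 1 point per gene. Without cytokines the points lie along the horizontal axis (r = 0.022), whereas at 12 h they slope upward (r = 0.636), with Nr1d1, Dbp and Nfkbiz off the slope.

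At 12 h with cytokines, BRD0476 moved 3827 genes (26.9%), 2323 higher (16.3%) and 1504 lower (10.6%). The 6 h and 12 h differences correlated at Pearson 0.636 and Spearman 0.451 across genes. Of the genes called at 6 h, 2725 were called at 12 h (43.5%, or 71.2% of the 12 h calls), 1417 higher in both, 1010 lower in both and 298 in opposite directions. Over the 6261 genes called at 6 h, the median size was 0.493 at 6 h and 0.209 at 12 h. Cxcl9, C1s and Irf1 fell at 12 h too (-7.95, -5.39 and -2.50), and the 12 h minus 6 h term was not called for them (adjusted p = 0.452, 0.666 and 0.46). Rsad2 fell less at 12 h (-1.92; 12 h minus 6 h term 2.85, adjusted p = 0.000998). Over all genes that term was called for 3559 (25.0%). The 12 h arrays are other arrays, but those of the DMSO group deviated from their group mean as the 6 h arrays of the same number did (r = 0.42, 0.396 and 0.722 across genes; 0.149, 0.021 and 0.101 for the BRD0476 groups). On the third DMSO array 192 genes lay at least 1 unit below the mean of the other 2 at 12 h, as 184 did at 6 h, and on the second 46 and 41 lay above. At 12 h the beta-actin 3' probe set of the third array exceeded the 5' one by 1.75 units, against 1.71 and 1.73 on the other 2. The part of the shared deviation of the DMSO arrays in the correlation of the 6 h and 12 h differences was not tested. On the first 12 h BRD0476 array 81 genes lay below.

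Some genes were called in opposite directions at the 2 times, and for each of the 5 named here the 12 h minus 6 h term was called. Nfkbiz was higher with BRD0476 at 6 h and lower at 12 h (1.81 ± 0.13 and -1.01), and so were Tnf (0.98 ± 0.17 and -1.56) and Egr1 (1.46 ± 0.11 and -1.25). The clock genes Dbp (-1.81 ± 0.10 and 1.13) and Bhlhe41 (-1.55 ± 0.08 and 1.0) were lower at 6 h and higher at 12 h. Nr1d1 differed by 0.51 at 12 h (adjusted p = 0.145; 12 h minus 6 h term 4.10, adjusted p = 5.03e-08), whereas Bmal1 was still lower (-1.96). Of the 19 clock genes, 11 rose and 2 fell at 12 h. Of 40 mitosis genes 4 rose and 3 fell at 12 h, and of 59 respiratory chain genes 6 rose and 0 fell. Of the antiviral genes 35 of 35 fell at 12 h, whereas of 30 ATF4 and CHOP genes 12 rose and 6 fell.

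The beta-cell label was checked against marker genes. All 9 measured beta-cell markers lay above a log2 level of 7 in untreated cells, and their summed intensity was 79213 to 79865 with DMSO, 91388 to 92501 with BRD0476 and 87785 to 96479 untreated; 6 of the 9 rose and 0 fell. None of 18 leukocyte markers lay above 7, and their sums were 309 to 324 with DMSO and 292 to 308 with BRD0476. Of these markers 1 rose (Csf1r, 0.37) and 1 fell (Ms4a1, -0.4), and without the third DMSO array 0 rose. Of 9 markers of other islet cells, Gcg and Etv1 lay above 7. Gcg, the glucagon gene, rose from 9.36, 9.26 and 9.38 to 10.21, 10.16 and 10.15 (0.84 ± 0.10), and Etv1 rose by 0.21. Fibroblast markers summed to 3994 to 4441 with DMSO and 3303 to 3473 with BRD0476, with Thy1 and Fn1 above 7 of 15, and 5 of these genes fell (Postn -1.64 ± 0.20, Vim -1.53 ± 0.15, Fbn1 -0.98 ± 0.16, Acta2 -0.94, Fn1 -0.29) while Pdgfra rose (1.09 ± 0.11). Untreated cells had fibroblast sums of 3618 to 3778. Endothelial markers summed to 557 to 793 with DMSO, 450 to 515 with BRD0476 and 393 to 426 untreated, with Egfl7 above 7 of 11; Kdr (1.72) and Egfl7 (0.35) rose while Plvap fell (-1.69). Exocrine and duct markers summed to 6770 to 6974, 6199 to 6413 and 5373 to 5595, with Krt7 and Epcam above 7 of 15. Among them Krt7 (-0.22) and Muc1 (-1.0) fell and 0 rose. The part of these marker shifts in the results was not tested. In RNA of whole cultures, fewer cells of a kind and less RNA per cell cannot be told apart.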

How the data were processed

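RNA of INS-1E cells was measured on 24 single-colour Affymetrix arrays, 3 in each of 8 groups, and groups were taken from the labels. The deposited values are linear intensities that the authors normalized with RMA, per the submitters' processing notes; the version is not given in the sources used here. They were turned into log2. Of 31099 probe sets, 57 are controls, 20832 have 1 gene symbol, 436 have several and 9831 have none; the probe set with the highest mean stood for each of 14217 genes. The model was limma 3.58.1 (R 4.3.3) with 8 group means (16 residual degrees of freedom, 3.96 prior degrees of freedom) with Benjamini-Hochberg adjustment over all genes. With 3 arrays a group, their number limits the precision. Tested on simulated data of the main comparison with 14217 genes, the fit recovered 8, 33, 47 and 50 of 50 genes changed by 0.25, 0.5, 1 and 2 on the log2 scale, with 8 false calls. The simulated noise was independent between genes and arrays, and far fewer genes were changed than the 6261 called in the data. It therefore cannot give the error rate of the real arrays, which shared deviations across genes.

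Genes were named by rule: the 15 largest falls and rises whose arrays do not overlap, up to 4 called members of each list (2 where none was called), a panel, and the 5 largest interaction and 12 h minus 6 h terms in each direction. The members and lists were chosen with earlier results of these data known. Promoters came from RefSeq (GRCr8), with 11700 of the 14217 genes matched. The alternatives tried are named in the closing section. No overlap or correlation was computed between comparisons that share arrays.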

Additional observations from a re-analysis of the deposited data

Results flagged for a closer look

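The effect of BRD0476 differed with and without cytokines at 6 h in 4717 genes by the interaction term (33.2% of those tested), and between 12 h and 6 h with cytokines in 3559 (25.0%). Named genes that were called in opposite directions with and without cytokines, with the interaction term called too, were Cd55 (1.10), Gpd1 (1.89), Slc15a2 (2.47) and Trib3 (-2.33).

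Named genes called in opposite directions at the 2 times, with the 12 h minus 6 h term called too, were Barhl1 (3.92), Bhlhe41 (2.55), Dbp (2.94), Dnajb9 (1.82), Mt2A (1.56) and Sstr3 (1.20), which were lower with BRD0476 at 6 h and higher at 12 h. Nfkbiz (-2.82), Egr1 (-2.72), Tnf (-2.54), E2f7 (-1.25) and Nfkbia (-0.56) were higher at 6 h and lower at 12 h. Barhl1 is one of the genes that were low on the third DMSO array with cytokines at 6 h.

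The 10216 probe sets outside the named comparison, controls aside, all carry no gene name or several. Among them limma called 2524 with cytokines at 6 h (24.7%), 1650 higher and 874 lower, against 3 of 57 control probe sets (5.26%). Of the named genes 44.0% were called in the same contrast, but in a separate fit. The fit of probe sets adjusted its p-values over all 31099. Groups of 3 arrays are too small for the test of outlying samples.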

How the results depend on the processing

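The comparison with cytokines at 6 h kept its counts within 1.5 times under 8 alternatives: only the arrays compared, a replicate block, an intensity trend with robust prior, array weights, probe sets of a gene averaged, no dim genes, centred arrays and quantile normalization. Leaving out 1 array gave 3135 to 3442 genes higher and 2424 to 2858 lower, and at 2-fold 280 to 315 and 452 to 631. Rises were 56.0% of its calls, and 51.7% to 58.2% over the alternatives. Leaving out 1 array gave 107 to 194 higher and 143 to 237 lower without cytokines, 2385 to 2730 and 1837 to 2347 for the interaction, 1892 to 2236 and 1277 to 1470 at 12 h, 1447 to 2038 and 1586 to 1998 for 12 h minus 6 h, 3164 to 3465 and 3640 to 3820 for cytokines in DMSO, and 1611 to 1816 and 1529 to 1877 for BRD0476 with cytokines against untreated cells.

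Without cytokines, array weights gave 617 genes higher and 506 lower, and only the arrays compared, which leaves fewer residual degrees of freedom, gave 43 and 65. At 12 h, only the arrays compared gave 1310 higher. For the weights the cause was not tested. Of 222 named genes, 214 were called, 13 lost the call in at least 1 of 14 settings (Adrm1, Csf1r, Etv1, Fas, Gata4, Ms4a1, Nfkbia, Pam, Pcsk2, Psmb7, Stx1a, Tnf and Uba1) and Rpl4 gained it. Fas reversed to 0.025 (adjusted p = 0.831) with the mean of its probe sets, 1 of which is called the other way. Of 510 counts of lists under alternatives, 23 moved by over 1.5 times.

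Same-numbered arrays of the 2 groups compared at 6 h deviated together weakly (r = 0.126, 0.022 and 0.053), and over all groups 21 of 84 same-numbered pairs had r over 0.1. Not every pair passed 0.1, so the block is an alternative here, although the DMSO groups with cytokines at 6 h and 12 h did deviate together (r = 0.396 to 0.722). The main fit took these arrays as independent, also for the 12 h minus 6 h term. The block gives each replicate number 1 shift over all 8 groups, so it cannot take up a deviation of these DMSO groups alone. With the replicate block, 3482 genes were higher and 2732 lower with cytokines at 6 h (294 and 501 at 2-fold), 226 and 247 without cytokines, 2626 and 2007 for the interaction, 2268 and 1484 at 12 h, 1646 and 1815 for 12 h minus 6 h, 3429 and 3879 for cytokines, and 1963 and 1917 against untreated cells. The table gives no background signal, so no probe set could be called absent, and 2236 genes with a mean under 3.84 may show less than their true fold.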
